A study of Homo sapiens with 9 samples.

Results

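The data describe what lowering ARID1B changed in human fibroblasts with activated RAS. They come from IMR90 ER:RAS cells, a lung fibroblast line (spelled IRM90 in the labels) with an oncogenic RAS joined to the ligand-binding domain of the oestrogen receptor. The drug 4-hydroxytamoxifen (4OHT) switches this fusion on. The comparison takes the 3 arrays of cells with an ARID1B short hairpin and 4OHT (shARID1B+4OHT, called knockdown cells) minus the 3 arrays of cells with an empty vector and 4OHT (vector+4OHT, called senescent vector cells). Its members are therefore 6 of the 9 arrays in the series, set by the labels alone, and the 18417 genes measured on them. The remaining 3 arrays (vector-4OHT, called non-senescent vector cells) carried the empty vector and received no 4OHT. They entered the same fit and served to find the genes that senescence left flat. The labels give 100 nM 4OHT, 6 days after 4OHT and growth for 7 days. All 3 groups carry ER:RAS. The vector group holds no hairpin at all, and there is no group with the hairpin and no 4OHT, so effects of carrying a hairpin cannot be told apart from those of lowering ARID1B. The labels do not say which hairpin was used, or whether replicates were separate cultures. The study calls its replicates biological without saying what was repeated, so the p-values cover the spread among these arrays alone.

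ARID1B is a DNA-binding subunit of BAF, a form of the SWI/SNF complex, which uses ATP to move nucleosomes and so opens or closes regulatory DNA. Cells hold ARID1B or its close relative ARID1A in a given complex. Senescence is a lasting arrest that oncogenic RAS imposes on normal fibroblasts. It comes with high p21 and p16, with secretion of cytokines, proteases and growth factors, and with broad changes in chromatin. The question behind the comparison is which genes of these cells depend on ARID1B.

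Values are log2 expression after RMA, a method that corrects background, puts all arrays on 1 distribution and sums up the probes of a gene. The median of all probe sets was 6.75, and genes below it are called dim here. The arrays compared had medians between 6.70 and 6.79 and correlated across probe sets at 0.9927 to 0.9956 between the groups and 0.9955 to 0.9972 within groups of the series. No array stood apart on its own, although the first vector+4OHT array had the highest median and the lowest weight when limma weighted arrays by their scatter (0.352, against 0.758 to 1.77 for the others). The fibroblast markers were high, with a mean log2 level of 11.06 to 11.14 on the senescent vector arrays and 11.13 to 11.18 on the knockdown arrays over 12 measured. Epithelial markers averaged 7.00 to 7.16 and 7.15 to 7.22 over 9, endothelial markers 6.47 to 6.61 and 6.46 to 6.52 over 10, and leukocyte markers 6.22 to 6.29 and 6.27 to 6.29 over 10. Of these, 2 epithelial markers were called higher (KRT19 by 0.86 and CLDN4 by 0.38 log2), 1 leukocyte marker (CD68, 0.34) was called higher, and the endothelial list had 1 called higher and 2 called lower. Their part in the results below was not tested.

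The targeted gene was lower in every knockdown array. ARID1B stood at 8.63, 8.96 and 8.77 on the senescent vector arrays and at 8.07, 7.96 and 8.13 on the knockdown arrays. Every knockdown value lay below every vector value, including the non-senescent ones (8.93, 8.85 and 8.94). The log2 change was -0.73 ± 0.08 (SE, n = 3 per group; limma, adjusted p = 0.000179), so 60.1% of the senescent vector level remained. Among 26 measured SWI/SNF subunits none was called higher and 3 were called lower: ARID1B itself, DPF3 (-0.26) and BCL7B (-0.24). The calls of DPF3 and BCL7B were lost under several alternatives, among them the subtraction of array medians. ARID1A, the relative that can take the place of ARID1B, moved by 0.14 ± 0.09 (adjusted p = 0.354), and the core subunit SMARCC1 by 0.10 ± 0.06 (adjusted p = 0.311).

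Across all genes the knockdown changed many by a little and few by much. Of 18417 genes tested, 2895 were called at a limma adjusted p under 0.05, or 15.7%. Of these 1773 (9.63% of genes) were higher and 1122 (6.09%) were lower in knockdown cells. With array medians subtracted the counts were 1799 higher and 760 lower, and without the second knockdown array, the one whose loss moved them most, they were 1108 and 693. The median size of a called change was 0.32 log2, against 0.09 over all genes. A called change of at least 0.5 log2 was seen for 572 genes, of which 396 were higher. One of at least 1 log2 was seen for 80 genes (0.434%), of which 65 were higher and 15 lower. The knockdown arrays lay wholly above or below the senescent vector arrays for 5993 genes (32.5%), and wholly outside all 6 vector arrays for 2759 (15.0%). In bulk RNA, fewer cells with a transcript and less of it per cell cannot be told apart. For 43 of the called genes the 3 arrays of a compared group were identical to the last digit, so their own spread is understated. Of the 41 gene lists used below, which were chosen with earlier results known, 34 had a larger share of members called than the 15.7% of all genes, and 7 had a smaller one.

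**Figure D1:**
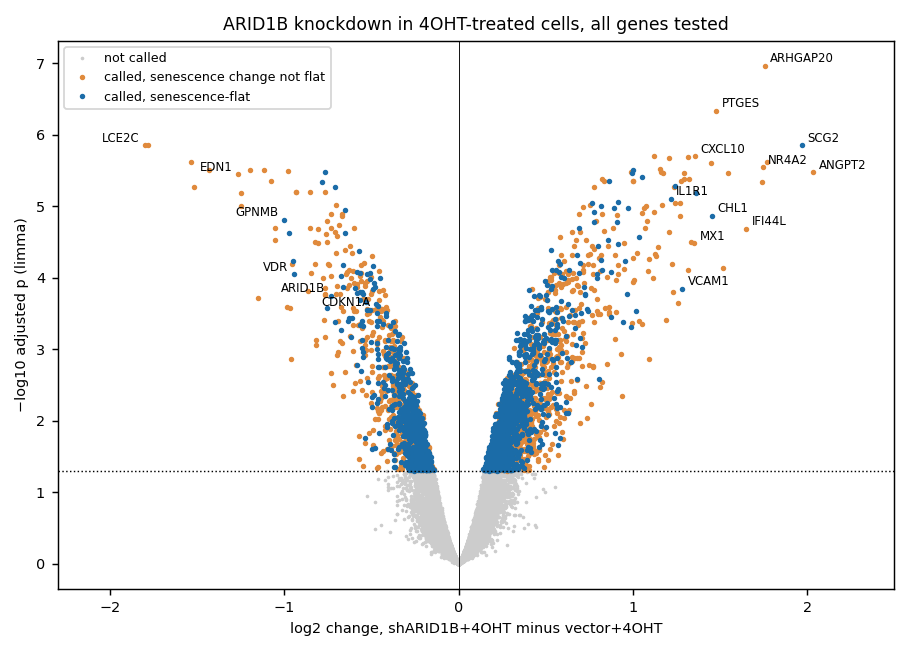
Each point is 1 of 18417 genes, with the log2 change of knockdown against senescent vector cells across and the −log10 of limma's adjusted p up; the dotted line is the 0.05 threshold. Blue points are called genes that senescence left flat and orange points are called genes that it did not; the rises reach further from 0 than the falls, with ANGPT2 at 2.03 and LCE2C at -1.80.

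The largest rise was in a blood vessel factor. ANGPT2, the angiopoietin that loosens the lining of vessels by acting on the receptor TEK, stood at 7.13, 7.48 and 7.47 in senescent vector cells and at 9.42, 9.46 and 9.31 in knockdown cells. It was dim in non-senescent vector cells (5.32, 5.72 and 5.63), so the 3 groups formed separate steps. The change was 2.03 ± 0.12, or 4.1-fold (adjusted p = 3.37e-06). SCG2, a granin stored in the secretory granules of neuroendocrine cells, rose by 1.97 ± 0.09 from 7.43, 7.45 and 7.56 to 9.53, 9.50 and 9.33 (adjusted p = 1.4e-06). Its senescent values overlapped the non-senescent ones (7.18, 7.52 and 7.37), so only the hairpin group stood out. NR4A2, an orphan nuclear receptor of the early response group, rose by 1.75 ± 0.09 from 9.24, 9.38 and 9.30 to 11.05, 11.15 and 10.97 (adjusted p = 2.84e-06). Its relative NR4A3 rose by 0.66, KLF4 by 0.66 and FOS by 0.33, while EGR1 (0.11) and IER3 (-0.09) were not called. The early response list had 5 of 23 members higher and 3 lower (34.8% called, beside 15.7% of all genes).

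Several of the largest rises were in genes that stood lower on the senescent vector arrays than in both other groups. CPM, a carboxypeptidase of the cell surface, stood at 8.36, 8.37 and 8.28 without 4OHT, 7.50, 7.70 and 7.89 with 4OHT and 9.37, 9.57 and 9.46 with the hairpin. Its knockdown arrays therefore lay above both vector groups, and the change against senescent vector cells was 1.77 ± 0.09 (adjusted p = 2.42e-06). ARHGAP20, a GTPase-activating protein, followed the same order at 7.05, 6.97 and 6.97, then 5.88, 5.83 and 5.76, then 7.59, 7.62 and 7.52, and had the smallest adjusted p of all genes (1.08e-07). CARD16, a relative of caspase-1 that holds only its recruitment domain, rose by 1.54 and also passed above both vector groups. GPRC5A, an orphan receptor first known as retinoic acid-induced, rose by 1.45 to 10.17, 10.17 and 10.21, which was still below its non-senescent level of 10.51, 10.60 and 10.61. The muscarinic receptor CHRM2 rose by 1.33 to 10.36, 10.37 and 10.25, and these values overlapped the non-senescent ones (10.34, 10.23 and 10.22). The matrix proteoglycan decorin (DCN) and the growth factor PDGFD rose by 0.65 and 1.07 but stayed below their non-senescent levels on every array.

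Other large rises added to a rise already present with 4OHT. FGF14, an intracellular member of the FGF family that binds sodium channels, stood at 4.73, 5.45 and 5.03, 7.21, 7.45 and 7.40 and 8.86, 8.92 and 8.83 in the 3 groups in the same order. TCIM, a small regulator tied to Wnt signalling, rose by 1.32, NDNF, a secreted factor of neurons and vessels, by 1.31, and ENTPD1, the surface enzyme CD39 that breaks down ATP outside cells, by 1.32. ENTPD1 and NDNF were dim in both vector groups.

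**Figure D2:**
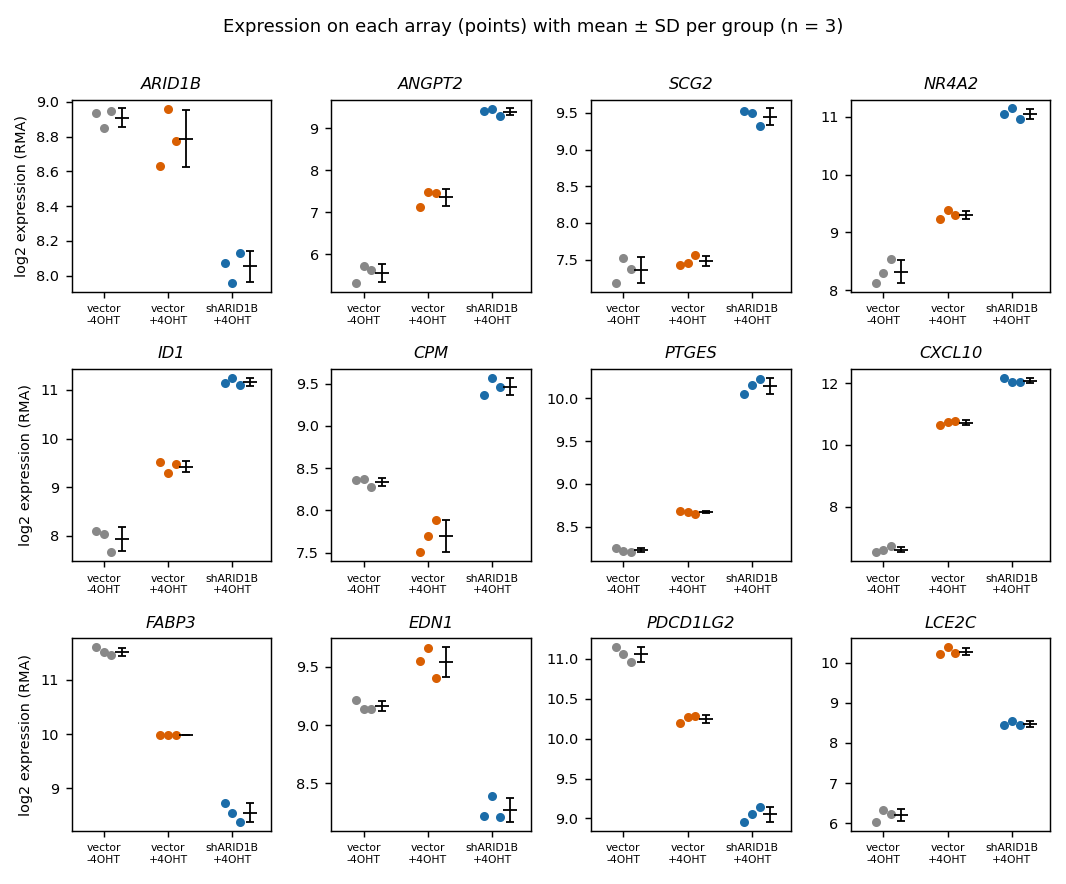
Each panel shows 1 gene, with log2 expression (RMA) up and the 3 groups across; points are single arrays and the black bars mean ± SD (n = 3). Axes differ between panels and do not start at 0; in each panel the 3 shARID1B+4OHT points lie apart from the 3 vector+4OHT points.

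Interferon response genes rose together. These are the antiviral genes that interferons switch on through factors that bind a DNA element with the core GAAANNGAA. Of 40 members measured, 23 (57.5%) were called higher and 0 lower, beside 9.63% and 6.09% of all genes, and the median log2 change was 0.46, beside -0.02. At an unadjusted p under 0.05, 29 members were higher and 0 lower. IFI44L, an interferon-induced gene of uncertain function, stood at 6.44, 6.34 and 6.61 on the senescent vector arrays and 8.41, 7.83 and 8.10 on the knockdown arrays (1.65 ± 0.13, adjusted p = 2.07e-05). MX1, a GTPase that traps viral nucleocapsids, rose by 1.35 ± 0.11 from 7.45, 7.53 and 7.70 to 9.13, 8.73 and 8.89 (adjusted p = 3.29e-05). Both genes were apart from all 6 vector arrays, and both were highest on the first knockdown array. IFITM1, a membrane protein that blocks viral entry, rose by 0.91 to 12.26, 12.06 and 12.05, and USP18, which removes ISG15 and damps interferon signalling, by 0.80. XAF1, an interferon-induced partner of the XIAP caspase inhibitor, rose by 0.99 to 9.35, 8.77 and 9.05. IFITM3 (-0.07) and IFITM2 (-0.09), close relatives of IFITM1, were not called, and the adjusted p-values were 0.513 and 0.379.

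The rise was uneven between the knockdown arrays. Set against the mean of the senescent vector arrays, the median of the 40 members was 0.58 on the first knockdown array, 0.30 on the second and 0.41 on the third. The senescent vector arrays themselves lay between -0.05 and 0.06 and the non-senescent ones between -0.05 and 0.03, so every knockdown array lay above all vector arrays. Leaving out each array in turn left 21 to 24 members called higher and none lower. The median senescence change of the list was 0.04, but single members ranged from -1.40 to 0.66, and 24 of the 40 were flat as defined below. Upstream of these genes, 7 of 24 interferons, receptors and sensors were higher and 1 lower (33.3% called, beside 15.7% of all genes). None of the 7 was an interferon. The interferons measured were dim in both groups compared and not called, with log2 changes of -0.091 to -0.055. TLR3, the endosomal sensor of double-stranded RNA, rose by 1.09 ± 0.10 from 6.24, 6.31 and 6.51 to 7.57, 7.36 and 7.41, still below its non-senescent level (8.59, 8.92 and 8.87). CGAS, the sensor of cytosolic DNA, rose by 0.94, the receptor kinase JAK2 by 0.81 and the factor IRF3 by 0.23, while JAK1 moved by 0.05 (adjusted p = 0.63). In the MHC class I list 3 of 10 were higher and none lower (30.0% called). The 3 were the immunoproteasome subunits PSMB9 (0.66) and PSMB8 (0.25) and the loading factor TAPBP (0.26). The light chain B2M moved by 0.01 (adjusted p = 0.933).

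**Figure D3:**
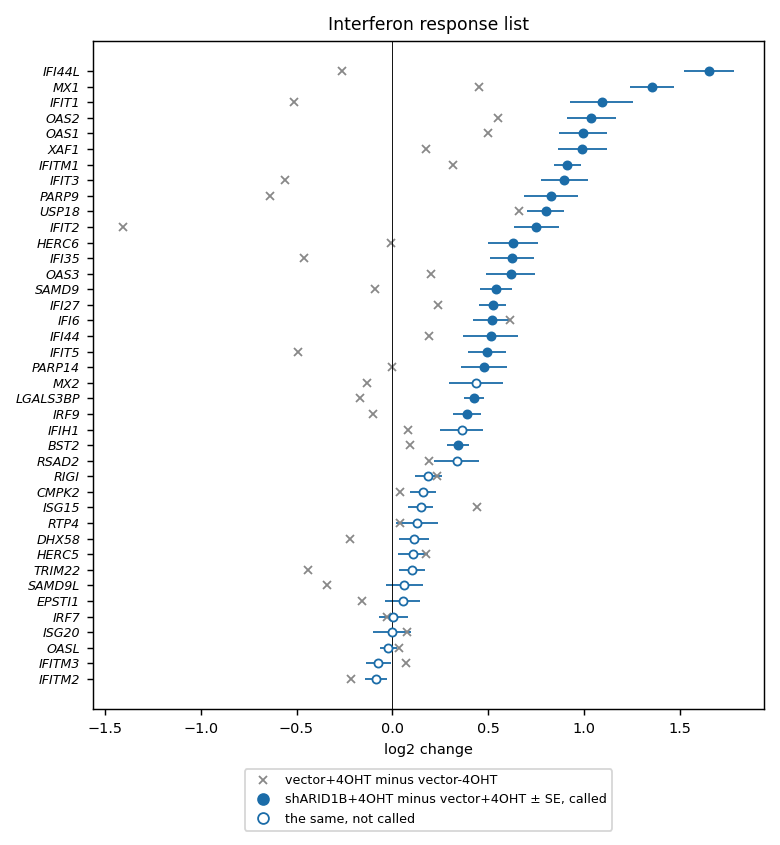
The 40 measured interferon response genes are ordered by their knockdown log2 change (blue, with SE; filled where called, open where not), and the grey crosses give the change with 4OHT in vector cells. The filled points lie between 0.34 and 1.65, and no member was called below 0.

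The start regions of 3 risen genes show where the interferon element core lies, with its letters and those of its reverse complement in capitals. Each window runs from 250 bases before to 50 bases after a start annotated by RefSeq (GRCh38.p14), 5′ to 3′ on the strand of the gene. They are shown because MX1, IFITM1 and the chemokine CXCL10 are named above or below as risen genes and each window holds the core. The regions are chr21:41420308-41420607 on the plus strand for MX1, chr11:313790-314089 on the plus strand for IFITM1 and chr4:76023448-76023747 on the minus strand for CXCL10.
MX1: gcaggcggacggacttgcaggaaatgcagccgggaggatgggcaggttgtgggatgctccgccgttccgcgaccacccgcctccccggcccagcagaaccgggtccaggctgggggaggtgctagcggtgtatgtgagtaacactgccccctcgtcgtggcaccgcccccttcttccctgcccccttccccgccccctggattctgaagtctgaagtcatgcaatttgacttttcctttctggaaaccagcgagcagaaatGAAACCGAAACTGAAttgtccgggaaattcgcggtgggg
IFITM1: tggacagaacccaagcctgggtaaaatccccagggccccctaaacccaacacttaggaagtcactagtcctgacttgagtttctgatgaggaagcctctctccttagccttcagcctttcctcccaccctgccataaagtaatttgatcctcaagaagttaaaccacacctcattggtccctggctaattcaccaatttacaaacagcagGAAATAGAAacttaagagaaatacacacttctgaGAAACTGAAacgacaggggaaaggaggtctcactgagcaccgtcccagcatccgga
CXCL10: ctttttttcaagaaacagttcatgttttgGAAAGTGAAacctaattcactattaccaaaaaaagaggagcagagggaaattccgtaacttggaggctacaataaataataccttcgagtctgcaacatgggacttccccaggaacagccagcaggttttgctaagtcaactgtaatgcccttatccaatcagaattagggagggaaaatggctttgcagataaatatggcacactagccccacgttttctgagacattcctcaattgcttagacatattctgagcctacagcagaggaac

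In these windows MX1 and IFITM1 hold 2 matches each and CXCL10 holds 1. Taking the first window listed per gene, the core (either strand) was found for 14 of 20 interferon list members called higher (70.0%) and for 8 of 11 that were not called (72.7%), against 972 of 14239 measured genes with a window (6.83%). Members of the list that rose and that did not thus held it at nearly the same share. Among all genes called with at least 1 log2, it was in 9 of 47 higher genes (19.1%) and 1 of 12 lower genes (8.33%). Where a gene counted if any of its windows held the core, these became 12 of 47 (25.5%) and 3 of 12 (25.0%), against 9.15% of all, so the difference between rises and falls rested on which window was read. A match is a description of the letters and not a site of binding. The AP-1 motif TGANTCA was in 4 of 47 and 1 of 12 (5.58% of all), the CRE TGACGTCA in 1 and 0 (2.65%), the E-box CACGTG in 4 and 2 (8.88%) and the TATA motif TATAAA in 5 and 3 (9.0%). No test was run on these counts.

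The secreted signals of senescent cells moved in both directions. Of 33 cytokines and chemokines, 7 were called higher and 5 lower (36.4% called, beside 15.7% of all genes). CXCL10, which draws T cells and is itself induced by interferon, stood at 6.53, 6.58 and 6.71 without 4OHT, 10.65, 10.73 and 10.79 with it and 12.17, 12.03 and 12.04 with the hairpin as well. The knockdown change was 1.36 ± 0.07 (adjusted p = 2e-06) and raised an already high level. CXCL11, which shares its receptor, rose by 1.27 from a dim 6.02, 6.02 and 6.16 to 7.41, 7.38 and 7.25. IL6, a leading secreted cytokine of senescence, rose by 0.71 ± 0.05 from 11.14, 11.05 and 11.11 to 11.80, 11.84 and 11.81 (adjusted p = 1.01e-05). TNFSF15, a TNF family ligand, fell by 0.57 log2, from 11.77, 11.85 and 11.86 to 11.27, 11.27 and 11.24. The other lower members were CXCL5 (-0.56), CSF3 (-0.55), IL1A (-0.41) and the dim IL24 (-0.24). CXCL8 (-0.02) and CCL2 (0.10), both high in senescent cells, were not called, and the 95% intervals of their changes ran from -0.27 to 0.24 and from -0.00 to 0.21. The NF-kappaB feedback list had 4 of 18 higher and 3 lower (38.9% called). Among the higher were the adhesion molecule VCAM1 and the inhibitor TNFAIP3 (0.38), and among the lower NFKBIE (-0.35) and TNIP1 (-0.33).

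More prostaglandin pathway genes rose than fell, with 8 of 21 members called higher and 3 lower (52.4% called, beside 15.7% of all genes). Each array left out kept 8 higher, but 1 was lower without the second or the third knockdown array or the first or the second senescent vector array. The median log2 change of the list was 0.02. PTGES, the enzyme that makes prostaglandin E2, stood at 8.68, 8.67 and 8.65 in senescent vector cells, 10.05, 10.16 and 10.23 in knockdown cells and 8.25, 8.22 and 8.20 in non-senescent ones. Its groups did not overlap, and the change was 1.48 ± 0.05, or 2.79-fold (adjusted p = 4.59e-07). TBXAS1, which makes thromboxane, rose by 0.69, PTGIS, which makes prostacyclin, by 0.76, PTGS2, the inducible cyclooxygenase, by 0.51 and the receptor PTGER2 by 0.55. The prostaglandin exporter ABCC4 moved by 0.10 (adjusted p = 0.236).

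Matrix proteases and their inhibitors moved in both directions, with 7 of 28 higher and 8 lower (53.6% called, beside 15.7% of all genes). MMP3 (stromelysin), among the genes that rose most with 4OHT, fell by 1.12 log2 from 11.65, 11.54 and 11.62 to 10.47, 10.51 and 10.47 (SE 0.06, adjusted p = 3.1e-06). It stayed far above its non-senescent values of 5.96, 5.83 and 6.04. ADAM19 fell by 0.68 log2, while ADAMTS9 and ADAMTS1, which cut proteoglycans, rose by 1.24 and 0.51. The inhibitor TIMP1 (-0.07) and the plasminogen activator PLAT (0.09) were not called.

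All 4 ID genes rose. BMPs are ligands that act through SMAD1, SMAD5 and SMAD9 to induce the ID proteins, which hold back differentiation factors of the bHLH class. Of 32 members of this list, 12 were higher and 3 lower (46.9% called, beside 15.7% of all genes), and leaving out each array in turn left 8 to 11 higher. ID1 stood at 9.51, 9.29 and 9.47 on the senescent vector arrays and 11.13, 11.25 and 11.11 on the knockdown arrays (1.74 ± 0.11, adjusted p = 4.63e-06). ID3 rose by 1.29 ± 0.07 from 7.85, 7.91 and 7.91 to 9.12, 9.27 and 9.14. ID2 rose by 1.0 ± 0.06 from 9.73, 9.87 and 9.88 to 10.82, 10.80 and 10.86, and ID4 by 0.69. For all 3 of ID1, ID2 and ID3 the knockdown arrays lay above all 6 vector arrays, and ID1 and ID3 had risen with 4OHT already while ID2 had not. The ligand BMP6 rose by 1.02, with unequal knockdown arrays of 7.29, 7.91 and 7.52, and the effector SMAD9 by 0.99. The ligand BMP2 (0.02) and the receptor BMPR2 (-0.04) were not called. The 3 lower members were the BMP antagonist GREM1 (-0.65), the effector SMAD1 (-0.53) and the activin antagonist FST (-0.20). The related TGF-beta list had 6 of 21 higher and 6 lower (57.1% called). The latent-form binder LTBP2 was lower by 0.78 and its relatives LTBP3 and LTBP1 higher by 0.35 and 0.26. The activin subunit INHBA fell by 0.36 log2.

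Of 24 vascular factors, ANGPT2 among them, 4 were called higher and 7 lower, or 45.8% called beside 15.7% of all genes. EDN1, the vessel-constricting peptide endothelin, fell by 1.27 log2, from 9.55, 9.66 and 9.41 to 8.22, 8.39 and 8.21 (SE 0.07, adjusted p = 3.59e-06). Its knockdown arrays were below both vector groups (9.22, 9.14 and 9.14 without 4OHT). ANGPTL4 fell by 0.77 and the dilating peptide ADM by 0.50 log2. The list count rested in part on single arrays, since without the second knockdown array it was 3 higher and 4 lower, and without the third 4 higher and 3 lower.

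Late cornified envelope genes were among the largest falls. They encode proteins of the outer skin layer and lie side by side, with sequences close enough that probes may not tell them apart. LCE2C stood at 6.04, 6.34 and 6.24 without 4OHT, 10.21, 10.38 and 10.23 with it and 8.44, 8.55 and 8.44 with the hairpin. The hairpin group fell by 1.80 log2 from the senescent vector group (SE 0.08, adjusted p = 1.4e-06) and lay between the other groups without overlap. LCE2A fell by 1.53 from 12.58, 12.62 and 12.30, LCE2B by 1.52 from 10.57, 10.27 and 10.45 and LCE1F by 1.25 from 9.20, 9.14 and 8.93. On the list of 29 late cornified envelope and other epidermal genes, 6 were lower and 0 higher at the adjusted threshold (limma), and 10 lower and 0 higher at an unadjusted p under 0.05. The share called was 20.7%, beside 15.7% of all genes in either direction and 6.09% lower, and the median log2 change was -0.15, beside -0.02. The 6 were all LCE genes. The crosslinking enzyme TGM2 (-0.03) was not called. FER1L6, a membrane protein of the ferlin family, fell by 1.78 log2 from 9.05, 9.37 and 9.26 to 7.44, 7.44 and 7.44, so that its 3 knockdown arrays held 1 value.

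Both ligands of PD-1 fell, though the median of their list, immune checkpoint and natural killer cell ligands, lay near that of all genes. PDCD1LG2 (PD-L2), a ligand of the T cell checkpoint receptor PD-1, stood at 11.15, 11.06 and 10.96, 10.19, 10.27 and 10.29 and 8.96, 9.06 and 9.14 in non-senescent, senescent and knockdown cells. Its change was -1.20 ± 0.06 (adjusted p = 3.1e-06) and went in the same direction as the change with 4OHT. CD274 (PD-L1), the other ligand of PD-1, fell by 1.15 log2 from 7.17, 7.47 and 7.59 to 6.03, 6.38 and 6.37, which overlapped its non-senescent level (6.61, 6.46 and 6.29). ULBP1 and ULBP3, ligands of the natural killer receptor NKG2D, fell by 0.61 and 0.34 log2. These were the 4 called of 20 measured, with 0 higher (limma), and at an unadjusted p under 0.05 there were 1 higher and 6 lower. The background is 15.7% of all genes called, which 4 of 20 exceeds by little, and the list median was -0.06. CD47 (0.18) and PVR (-0.15) were not called.

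Other large falls came from several kinds of gene. FABP3, a carrier of fatty acids, stood at 11.60, 11.50 and 11.45 without 4OHT, at 9.99, 9.99 and 9.99 with it and at 8.73, 8.55 and 8.39 in knockdown cells, a change of -1.43 ± 0.08 (adjusted p = 3.1e-06). The lipid carrier list had 4 of 19 higher and 7 lower (57.9% called, beside 15.7% of all genes). NEDD9, a docking protein of focal adhesions, fell by 1.08 log2, also below both vector groups. SPP1 (osteopontin), a secreted matrix protein, fell by 1.25 from 7.94, 8.19 and 7.99 to 6.88, 6.67 and 6.83, which reached its non-senescent level (6.67, 6.53 and 6.70). DOCK9, an activator of CDC42, and SEMA3C, a guidance factor, fell by 1.06 and 1.05. The deubiquitinase USP46 fell by 0.98 and the nuclear body protein SP140 by 0.96. C2CD2 fell by 0.99 and the small nucleolar RNA SNORD45A by 0.97.

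The arrest genes moved less than these. CDKN1A, which encodes p21, stood at 11.83, 11.86 and 11.73 on the senescent vector arrays and at 11.40, 11.33 and 11.26 on the knockdown arrays. The groups did not overlap, the change was -0.48 ± 0.06 (adjusted p = 0.000279), and the knockdown arrays stayed above the non-senescent ones (11.11, 11.15 and 11.10). CDKN2A, which encodes p16 and ARF, moved by -0.14 ± 0.05 from 9.88, 9.91 and 9.79 to 9.67, 9.70 and 9.78 (adjusted p = 0.108), and CDKN2B, which encodes p15, by 0.11 ± 0.05 (adjusted p = 0.204). CDKN1A was the 1 of 7 CDK inhibitors called. Among 20 p53 target genes 3 were higher, by 0.15 to 0.31, and 5 lower, a larger share called than the 15.7% of all genes. The secreted factor GDF15 was lower by 0.56, PLK3 by 0.39 and TP53INP1 by 0.38, and MDM2 moved by 0.01 (adjusted p = 0.924). Of 47 mitosis genes 4 were higher and 3 lower, and of 48 DNA replication genes 7 were higher and 1 lower, so 14.9% and 16.7% were called, near the 15.7% of all genes. CDK1 rose by 0.58 ± 0.13 from a dim 5.20, 5.38 and 5.68 to 5.94, 6.04 and 6.02, below its non-senescent 7.67, 7.34 and 7.24. The polymerase subunits POLD3 and POLE2 rose by 0.79 and 0.77, and the sliding clamp PCNA by 0.32, while the licensing factor CDC6 fell by 0.57.

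Of the genes the study followed further, ENTPD7, a nucleotidase of the Golgi, stood at 9.70, 9.79 and 9.79 in senescent vector and 9.48, 9.53 and 9.49 in knockdown cells. It changed by -0.26 ± 0.05 (adjusted p = 0.0069) and stayed well above its non-senescent level of 8.77, 8.70 and 8.83. SLC31A2, a copper transporter of internal membranes, changed by -0.54 ± 0.06, from 10.28, 10.15 and 10.10 to 9.66, 9.63 and 9.62 (adjusted p = 0.000131), which overlapped its non-senescent level of 9.71, 9.75 and 9.65. In the copper and zinc list 4 of 18 were lower and 1 was higher (27.8% called, beside 15.7% of all genes). The 4 were SLC31A2, the metallothionein MT1X (-0.38), the copper chaperone ATOX1 (-0.32) and the zinc importer SLC39A14 (-0.21). In the nucleotide supply list 7 of 34 were higher, among them PRPS2 (0.52), TYMS (0.42) and CTPS2 (0.35), and 2 were lower (26.5% called).

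Genes that senescence changed little or not at all, called flat here, made up 1552 of the 2895 calls. A gene counted as flat where the 95% limma interval of vector+4OHT minus vector-4OHT lay within 0.5 log2 of 0, which held for 14855 of 18417 genes (80.7%). The rule bounds the change and does not mean that there was none: IFITM1 counted as flat with a senescence change of 0.31. Of the flat genes, 1552 (10.4%) were called in the knockdown comparison, 938 higher and 614 lower, beside 15.7% of all genes. With flat set instead as an unadjusted senescence p (limma) above 0.05, 714 of 11100 genes were called. The knockdown comparison shares the vector+4OHT arrays with the one that chose the flat genes, so its count among flat genes is a description. Testing knockdown cells against the mean of both vector groups avoids this, since in a balanced design that contrast is independent of the senescence change apart from the shared estimate of spread. It called 4085 of all genes (22.2%) and 2240 of the flat genes (15.1%), 1271 higher and 969 lower. Among flat genes 183 of these changes reached 0.5 log2 (125 higher) and 14 reached 1 log2 (13 higher). The flat genes named below come from the 1185 that both comparisons called in the same direction, 744 higher and 441 lower, and since both use the same 6 arrays with 4OHT this overlap is largely built in. With array medians subtracted the split of flat genes moved to 956 higher and 359 lower in the knockdown comparison and to 1474 and 547 against both vector groups, and that of all genes to 2589 and 1247 against both (2214 and 1871 without). Without the second knockdown array the flat counts were 879 and 1285, and without the third 957 and 1385.

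SCG2 and the cell adhesion molecule CHL1 led the flat rises. CHL1 was dim at 5.74, 5.54 and 5.52 and 5.47, 5.53 and 5.63 in the vector groups and 6.74, 7.05 and 7.21 in knockdown cells, which was 1.45 ± 0.11 against senescent vector cells and 1.43 against both (adjusted p = 1.5e-06). SULF1, which trims sulfate from heparan sulfate and so alters growth factor binding, rose by 1.36 ± 0.09 from 8.29, 8.57 and 8.66 to 9.92, 9.88 and 9.79. Against both vector groups its change was 1.25 (adjusted p = 1.04e-06). VCAM1, which binds leukocytes, rose by 1.28 ± 0.14, though its senescent vector arrays spread from 7.95 to 8.65. IL1R1, the signalling receptor of interleukin-1, rose by 1.22 ± 0.08 from 10.06, 9.92 and 10.11 to 11.23, 11.33 and 11.19, and against both vector groups by 1.34 (adjusted p = 3.02e-07). ADAMTS9, BMP6, ID2 and XAF1, described above, were also in this class. The ligand WNT16 rose by 1.0 to 11.38, 11.40 and 11.33, the tubulin binder TPPP3 by 1.05 and SHISA3, an inhibitor of Wnt and FGF receptors, by 1.03.

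The flat falls were smaller. GPNMB, a glycoprotein of lysosomes and the cell surface, stood at 11.01, 11.07 and 10.93 and 11.00, 11.15 and 10.94 in the vector groups and at 10.15, 9.90 and 10.02 in knockdown cells (-1.0 ± 0.08; against both -0.99, adjusted p = 1.58e-06). TBC1D2, a regulator of RAB7, fell by 0.97 from 9.66, 9.81 and 9.61 to 8.84, 8.77 and 8.55. VDR, the vitamin D receptor, fell by 0.95 from 8.36, 8.50 and 8.35 to 7.41, 7.34 and 7.63, and SERPINB7, a protease inhibitor of epithelia, by 0.95. SMURF2, a ubiquitin ligase that targets receptors and SMADs of the TGF-beta family, fell by 0.71 from 12.75, 12.79 and 12.82 to 12.07, 12.07 and 12.09, and the uridine and cytidine kinase UCK2 by 0.77. FAM171B fell by 0.78, HSD17B14, a steroid dehydrogenase, by 0.71 and SNCAIP, a partner of alpha-synuclein, by 0.66. ARHGAP23 and DOCK10, which act on small GTPases, each fell by 0.68, although the second, dimmer probe set of ARHGAP23 changed by -0.33 only. ARID1B itself was the other of the 12.

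**Figure D4:**
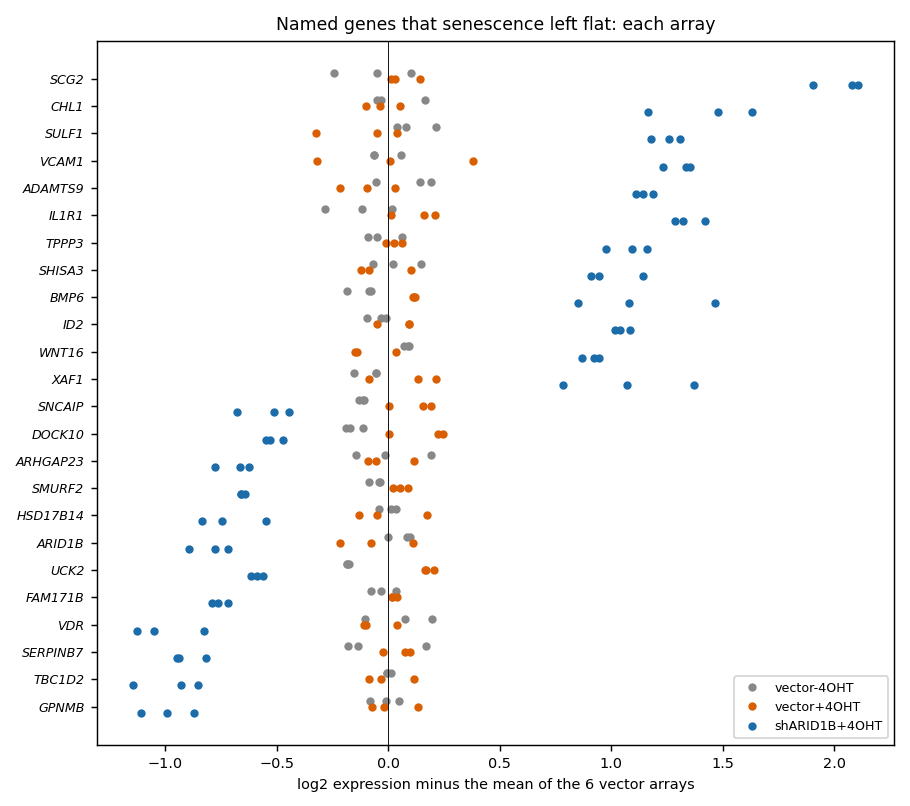
Each row is 1 of the 24 named flat genes, and each point 1 array, with log2 expression minus the mean of the 6 vector arrays across. Grey and orange points (vector without and with 4OHT) mix around 0 and the blue shARID1B+4OHT points lie to the right for 12 rises and to the left for 12 falls, both by the rule that chose the genes.

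Genes of structure and adhesion shifted in part. Contractile genes had 8 of 20 lower and 1 higher, with a median log2 change of -0.09 (45.0% called, beside 15.7% of all genes). The lower calls numbered 5 with array medians subtracted, without the second or the third knockdown array and without the second senescent vector array. The actin-binding TAGLN fell by 0.53 from 10.81, 10.94 and 10.92 to 10.42, 10.26 and 10.40, smooth muscle actin gamma (ACTG2) by 0.45, SMTN by 0.40 and CALD1 by 0.35, and TPM2 (0.00) was not called. The 1 higher member was MYOCD (0.49), a coactivator of smooth muscle genes. For the lists that follow, the share of members called also stands beside 15.7% of all genes. It was 26.9% for collagens, 43.5% for integrins and laminins, 27.3% for the Wnt list, 15.0% for the Notch list and 7.41% for HOX genes. For channels, RAS-ERK feedback and granins it was 33.3%, and for the FGF, PDGF and HGF list 42.4%. Collagens had 3 of 26 higher and 4 lower, with COL14A1 at 0.81 and COL10A1 at -0.77. Among integrins and laminins 5 of 23 were higher and 5 lower, with ITGA8 (0.91) and ITGB3 (0.48) up and ITGB5 (-0.44) down. The Wnt list had 3 of 33 higher and 6 lower, among them the antagonist DKK2 (-0.76) and the ligand WNT5A (-0.37). In the Notch list 2 of 20 were higher and 1 lower, the receptor NOTCH2 by 0.56. HOX genes had 1 of 27 in each direction, HOXA2 (0.66) and HOXB5 (-0.38). Channels had 6 of 30 higher and 4 lower, with KCNQ5 at 0.72 and KCNJ15 at -0.77. In the RAS-ERK feedback list 4 of 21 were higher and 3 lower, with ETV1 at 0.82, SPRY2 at 0.28 and the phosphatase DUSP4 at -0.60. Growth factor genes of the FGF, PDGF and HGF list had 9 of 33 higher and 5 lower, with IGFBP2 and IGFBP3, which bind insulin-like growth factors, at 0.78 and 0.57. Granins and prohormone enzymes had 5 of 21 higher and 2 lower, with the chaperone SCG5 at -0.86 against its relative SCG2.

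The metabolic and stress lists of this paragraph had between 22.2% and 33.3% of members called, and the chromatin list 13.6%, beside 15.7% of all genes. Nearly all their members were not dim, and with dim genes left out 3196 of 11945 genes were called, a larger share than 15.7%. The lipid carrier list, given above, had 57.9%. Cholesterol synthesis had 4 of 18 lower and 0 higher (limma; at an unadjusted p under 0.05, 8 lower and 1 higher), with MVK at -0.31 and DHCR7 at -0.23, and a median of -0.13. Glycolysis and hypoxia had 4 of 26 higher and 3 lower, with HK2 at -0.52 and PDK1 at 0.44, and GAPDH stayed at 0.03 (adjusted p = 0.726). The NRF2 and antioxidant list, which also holds the oxidase NOX4 (-0.75), had 4 of 24 in each direction. The cystine importer SLC7A11 stood at 0.80, AKR1C1 at 0.66 (0.17 on its second probe set) and HMOX1 at -0.56. Close relatives may share probes with AKR1C1. Amino acid and endoplasmic reticulum stress genes had 5 of 30 higher and 3 lower, with PSPH (0.58) and MTHFD2 (0.45) up, SLC7A5 (-0.51) down and HSPA5 at -0.00 (adjusted p = 0.968). Lysosomal genes had 2 of 22 higher and 5 lower, with NEU1 (-0.42) and NPC2 (-0.37). The polycomb and DNA methylation list had 2 of 22 higher, JARID2 (0.45) and EED (0.32), and 1 lower. Fibroblast markers had 2 of 12 in each direction, with PDGFRA at 0.28, FAP at -0.41 and VIM at -0.05.

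**Figure D5:**
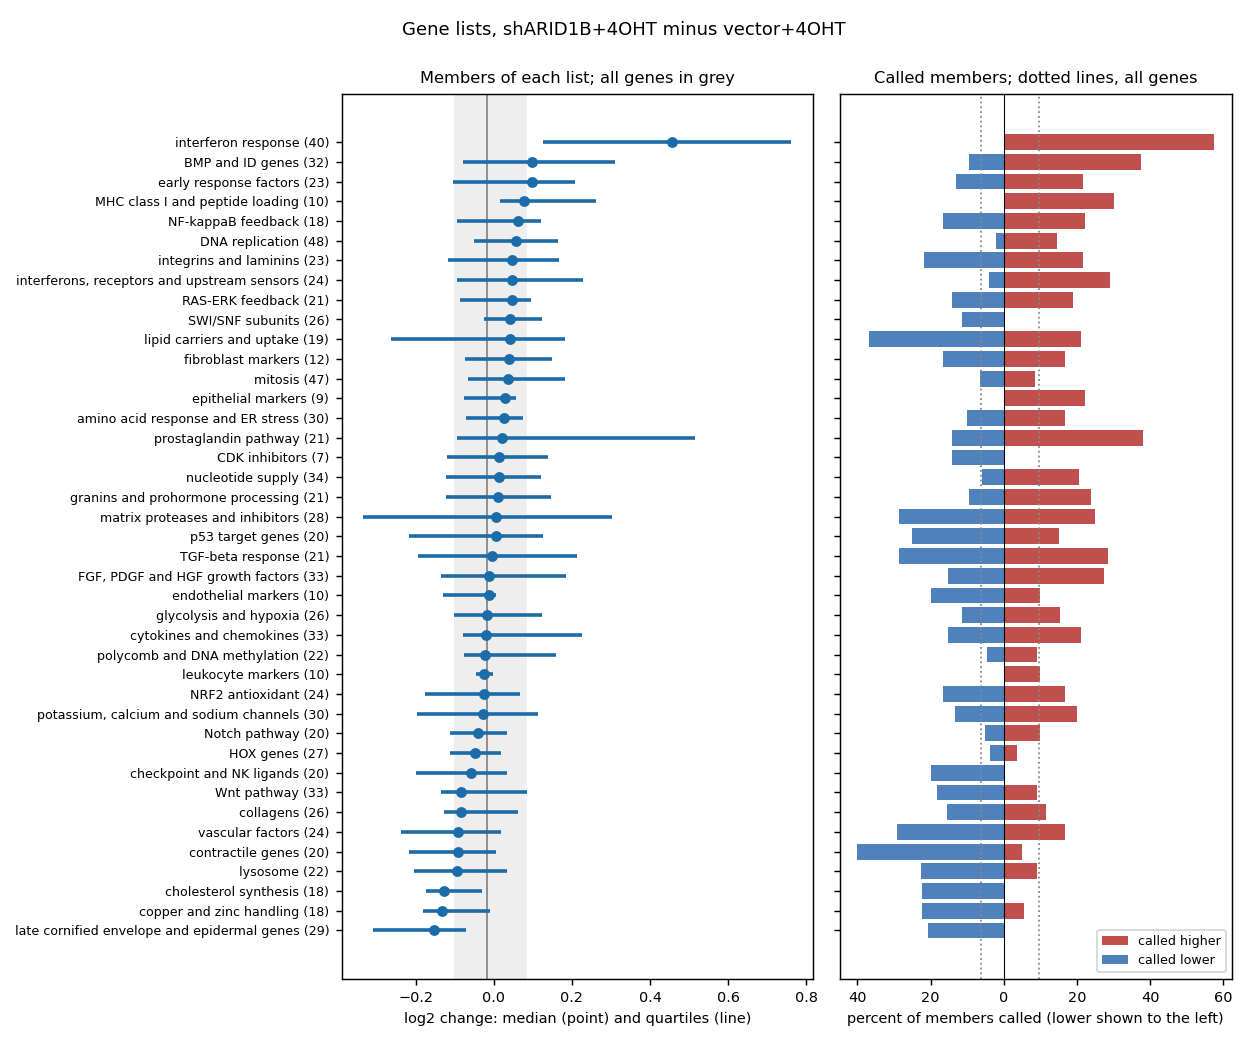
For each of 41 gene lists (members measured in brackets) the left panel gives the median and quartiles of the knockdown log2 change, with all genes in grey, and the right panel the percent of members called higher (red) or lower (blue), with dotted lines for all genes. The interferon list has the highest median (0.46) and the epidermal list the lowest (-0.15).

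Probe sets with no single gene name also held calls. Of 12083 with no symbol, 344 (2.85%) were called in a fit over all 33297 probe sets, 179 higher and 165 lower, and 16 of these changes reached 1 log2, 8 in each direction. Of 1754 with several symbols, 154 (8.78%) were called, 111 higher and 43 lower. They were left unnamed.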

How the data were processed

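Total RNA of 9 samples labelled as 3 groups of 3 was measured on Affymetrix Human Gene ST arrays. The labels mention an Illumina library kit for extraction, but the labelling steps and probe sets belong to arrays. The deposited values are log2 expression per probe set, and per the labels the submitters used RMA, oligo and limma. Versions and genome build are not given in the sources used here. RMA makes the arrays' distributions alike, so a shift of all genes would be lost. Precision is limited by the number of arrays.

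The table held 33297 probe sets with no missing values. Of these, 19460 had 1 gene symbol, 19429 of them found in RefSeq (GRCh38.p14, used for names and promoter windows). For 769 genes with several probe sets the one with the highest mean was kept, leaving 18417 genes. Probe sets with several symbols (1754) or none (12083) were left out of the gene tests.

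limma 3.58.1 in R 4.3.3 fitted all 9 arrays with group as the only term, tested on simulated data first. Genes were called at an adjusted p under 0.05 (2-sided, Benjamini-Hochberg over the 18417 genes). Residual degrees of freedom were 6, or 10.45 counting the prior, with a median residual SD of 0.0843. With 3 against 3 arrays, exact permutation could reach no p under 0.1. Figures used matplotlib 3.10.9.

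Genes were named by rule: ARID1B and 4 genes of the study; the 20 largest rises and falls among called genes whose groups did not overlap and whose higher mean passed the median of all probe sets; the 12 largest flat rises and falls called in both comparisons; and per list up to 4 called members with the smallest p and 2 not called with the highest mean. ARID1A, GREM1, SMAD1, FST, ID4, PTGS2, CDC6, MYOCD, CXCL5, CSF3, IL1A and IL24 were named outside it, after their values were seen. The members, the 41 gene lists (979 of 1060 entries measured) and the tests were chosen with earlier results of these data known. NDST2 is not analysed here. Windows of 14239 measured genes were searched for motifs on both strands. Alternatives were the replicate block, centring, dim genes left out, mean of probe sets, intensity trend, array weights, each array left out, fewer arrays, all probe sets, the methods' t-test, size limits and other definitions of flat.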

Additional observations from a re-analysis of the deposited data

How the results depend on the processing

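Of the 18417 genes, 2895 were called in the knockdown comparison. Requiring at least 0.5 log2 left 572 and at least 1 log2 left 80. The methods' t-test on the 6 arrays gave 4342 genes unadjusted and 1446 after Benjamini-Hochberg (826 higher, 620 lower). Leaving out each array gave 1801 to 2817 calls, the fewest without the second knockdown array. Against both vector groups the range was 2755 to 4215 around 4085. Among flat genes the ranges were 879 to 1432 around 1552 and 1285 to 2314 around 2240. With flat set within 0.3 log2 the counts were 762 (7.39% of 10312 genes) and 1178 (11.4%), and with flat set as an unadjusted senescence p above 0.05 they were 714 (6.43% of 11100) and 1119 (10.1%). Subtracting array medians moved the median change of all genes from -0.02 to 0.01. Whether the numbers 1 to 3 in the titles pair the samples is not known. Same-numbered vector+4OHT and knockdown arrays deviated together at 0.322, 0.079 and 0.071, and the other pairs of these groups at -0.321 to 0.267. Deviations from means of 3 arrays depend on each other, so these values cannot decide it. With the numbers as a replicate block the counts were 2498, 3800, 1257 and 1993 in the order above. The log2 change of ARID1B stayed between -0.81 and -0.65 with an array left out. The other 261 named genes gave 4431 values under the alternatives, of which 4326 kept direction and side of the threshold, 83 lost the call, 22 gained it and 0 reversed. Of 180 called ones, 166 kept the call under all. Counts in 7 lists with each array left out were chosen after seeing the data, and the total moved by over 1.5 times only in the vascular list, the lower count also in the prostaglandin list (3 to 1) and the contractile list (8 to 5). Arrays give no read depth, and for 217 called genes both group means were below the median of all probe sets.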
